A study of Homo sapiens with 6 samples.

Results

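The aminoacyl-tRNA synthetases are described here in TPC-1-Len cells, a TPC-1 papillary thyroid carcinoma line made resistant to lenvatinib. Their genes were taken by symbol: protein-coding rows of the deposited count table named with a letter and ARS, with or without a number from 1 to 3, plus EPRS1, FARSA and FARSB. This rule found 38 of 22681 genes. Of these, 21 encode cytosolic enzymes (symbols ending in 1 or 3, with FARSA and FARSB) and 17 encode mitochondrial enzymes (symbols ending in 2). All 38 carry the pathway name Aminoacyl-tRNA biosynthesis in the deposited table, which gives that name to 44 genes in all. In 3 cultures a hairpin against the keratin gene KRT15, sh-KRT15, was transfected (shKRT15), and 3 others received the non-targeting sh-NC (shNC). Both groups were resistant and grew in 10 µM lenvatinib, an inhibitor of VEGF, FGF and PDGF receptor kinases, so no culture shows the enzymes without the drug. Transfection was with a liposomal reagent, and the hairpin sequence and the hours to harvest are not stated. The purpose was to find genes under the control of KRT15 that bear on resistance.

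Each synthetase joins 1 kind of amino acid to its tRNA, the step that gives the genetic code its meaning. Cytosolic enzymes serve the ribosomes of the cytoplasm, and nuclear genes with a number 2 make the enzymes imported into mitochondria for the few proteins translated there. GARS1 and KARS1 each make both forms, EPRS1 carries glutamate and proline activity in 1 chain, and FARSA and FARSB are the subunits of the cytosolic phenylalanine enzyme. Several cytosolic enzymes sit together with scaffold proteins in the multisynthetase complex. When amino acids run short, the transcription factor ATF4 raises many of the cytosolic synthetase genes through a composite C/EBP-ATF element, and interferon-gamma raises WARS1.

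The promoter windows below are shown because ATF4 is known to act on many cytosolic synthetase genes through that element. RefSeq promoter sequences (GRCh38.p14, 250 bases before to 50 after each gene start) were matched for 30 of the 38 genes. The motif TGATGNAA, searched on both strands, was in 7 of these 30 (23.3%) and in 3.67% of all 27305 promoters of that length. It lay in 6 of 16 cytosolic and 1 of 14 mitochondrial promoters. Capitals mark the match in 30 bases of each gene's own strand, so a match on the opposite strand reads TTGCATCA.
AARS1: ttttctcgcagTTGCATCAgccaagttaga
IARS1: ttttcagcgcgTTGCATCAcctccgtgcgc
CARS1: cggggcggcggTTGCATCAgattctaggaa
MARS1: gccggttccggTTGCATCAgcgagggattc
TARS1: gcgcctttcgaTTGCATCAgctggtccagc
NARS1: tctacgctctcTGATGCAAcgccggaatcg
YARS2: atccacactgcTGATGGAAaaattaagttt
The AARS1 window is chr16:70289675-70289704 on the minus strand, with the match beginning 187 bases before the gene start. The IARS1 window is chr9:92293692-92293721 on the minus strand, 13 bases before the start. CARS1 (chr11:3057407-3057436, minus strand) and MARS1 (chr12:57488053-57488082, plus strand) have it 2 and 4 bases before their starts. TARS1 (chr5:33440956-33440985, plus strand) and NARS1 (chr18:57621804-57621833, minus strand) have it 2 and 14 bases after. YARS2 (chr12:32756076-32756105, minus strand) has it 197 bases before. Of the 8 matched genes called higher in shKRT15, 2 held the motif, AARS1 and IARS1, and of the other 22 genes 5 did. The ETS core CCGGAAG, on both strands, was in 14 of the 30 (46.7%) and in 10.7% of all, in 3 of the 8 genes called higher and 11 of the other 22. Starts in these windows are those of RefSeq, which differ from the ends of the GENCODE gene spans given further on. A match describes letters in these windows and does not show binding.

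Counted reads per library were 39868231 to 41343780 in shKRT15 and 36286059 to 36808695 in shNC, and the synthetase genes took 0.525 to 0.57% of them in shKRT15 and 0.47 to 0.472% in shNC. KRT15 itself had 25.01, 24.3 and 24.9 CPM (reads scaled to library size, with TMM) in shKRT15, against 28.7, 31.9 and 36.2 CPM in shNC, a fall of 23.4% (adjusted p = 0.00465). Mitochondrially encoded genes took 4.86 to 6.54% of reads in shKRT15 and 4.99 to 5.24% in shNC. The labels call the cells thyroid epithelial. PAX8 was at 410.4 CPM in shKRT15 and 375 CPM in shNC, and none of 4 tested thyroid markers was called. KRT18 was at 215 and 116 CPM, the only one called of 3 tested epithelial markers. The others were KRT7 at 22.9 and 23.4 CPM and KRT8 at 14.9 and 12.9 CPM. EPCAM and CDH1 averaged at most 0.05 CPM in either group, TSHR and NKX2-1 were at or near 0, and SLC5A5 had no row. Summed leukocyte markers were at 158 to 186 CPM in shKRT15 and 207 to 209 CPM in shNC, mostly LAPTM5 and CD68 (PTPRC at most 0.4 CPM on average). Summed fibroblast markers were at 7.85 to 8.57 and 17.7 to 23.3 CPM. Of 3 tested leukocyte markers, 2 were called lower, and of 3 tested fibroblast markers, 2 were called lower and 1 higher. The part of these differences in the results below was not tested. The titles name only TPC-1 cells in both groups. In bulk RNA, fewer cells of a type and less RNA per cell cannot be told apart.

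All 38 genes passed the filter on low counts. Of them 13 were higher in shKRT15 (34.2%), 3 were lower (7.89%) and 22 did not pass the test (edgeR quasi-likelihood, adjusted p under 0.05). Over all 14356 tested genes, 45.0% were called, 22.1% higher and 23.0% lower. The changes were small: the median log2 fold change, shKRT15 over shNC, was 0.12 for the 38 genes and −0.00 for all tested genes. Of the 38, 2 were called at 1.5-fold higher or more, EARS2 among them, against 8.78% of all tested genes. The groups did not overlap in CPM in 21 of the 38 genes, against 54.0% of all genes. Together the genes summed to 5307, 5488 and 5266 CPM in shKRT15 and 4781, 4811 and 4833 CPM in shNC, a ratio of 1.11.

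Rises were found in both compartments. Of 17 mitochondrial genes, 7 rose (41.2%) and 1 fell (5.88%), with a median of 0.22. Of 21 cytosolic genes, 6 rose (28.6%) and 2 fell (9.52%), with a median of 0.08. The shares over all tested genes were 22.1% higher and 23.0% lower. The mitochondrial genes summed to 702, 691 and 707 CPM in shKRT15 and 587, 588 and 592 CPM in shNC, a ratio of 1.19. The cytosolic genes summed to 4605, 4797 and 4559 CPM in shKRT15 and 4194, 4223 and 4241 CPM in shNC, a ratio of 1.10. Both sums were higher in every shKRT15 library than in any shNC library. The difference of the medians, −0.14 for cytosolic minus mitochondrial, is a description without a test. Fold changes of all tested genes followed GC content (Spearman correlation 0.253 across 13783 genes, which are not independent replicates). With the GC and length trend of each library removed, 12 of the 38 genes were higher and 3 lower. Among all 14356 tested genes, 3366 were then higher and 3496 lower. Only 9 of the 16 calls among the 38 genes were kept, 7 were lost and 6 others gained. The higher calls were then 7 cytosolic and 5 mitochondrial, with medians of 0.03 and 0.17.

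**Figure D1:**
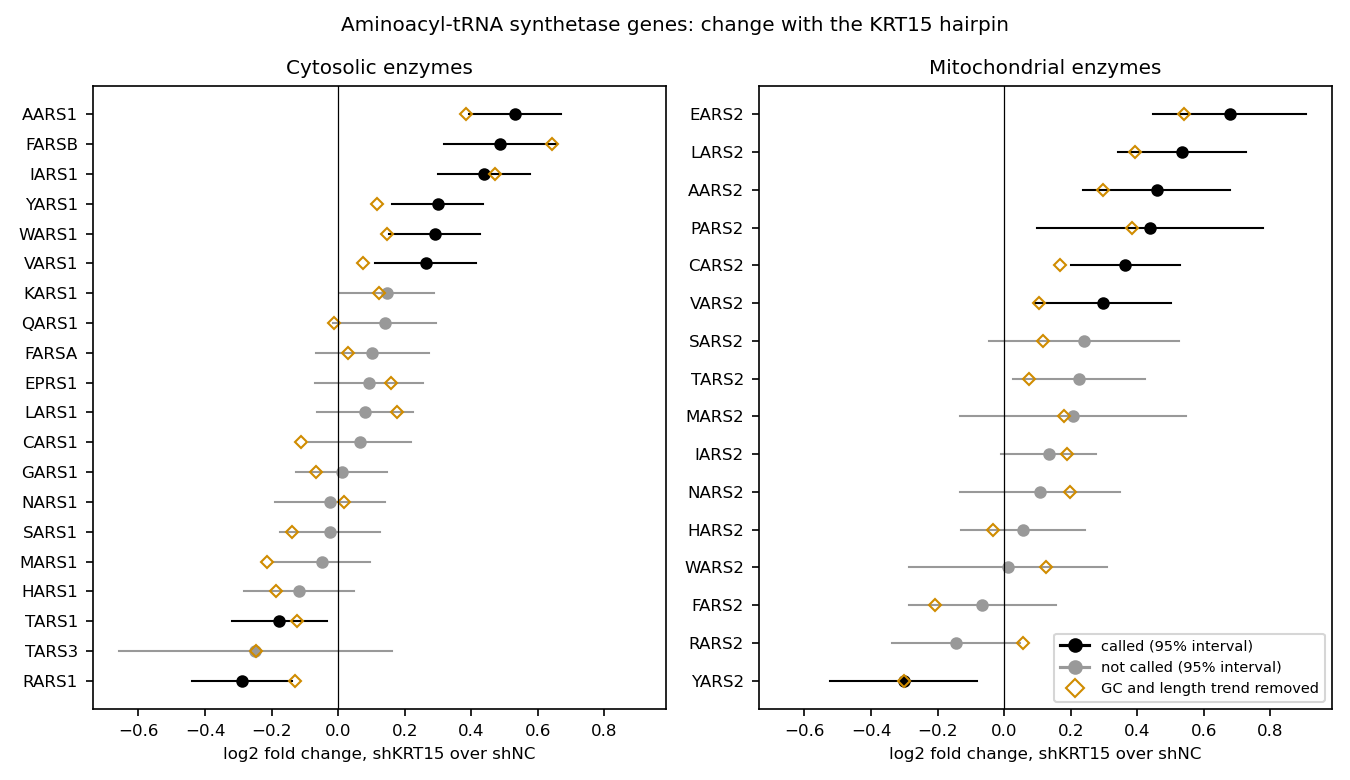
Log2 fold change of 36 synthetase genes, shKRT15 over shNC, with 95% intervals (n = 3 per group), cytosolic enzymes left and mitochondrial enzymes right. Black genes were called, grey ones were not, and open diamonds give the value once GC and length effects were taken out. EARS2 (0.68) lies farthest to the right of those drawn, and YARS2 (−0.30) and RARS1 (−0.29) farthest to the left.

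EARS2 and LARS2 rose among the mitochondrial enzymes. EARS2, the mitochondrial glutamate enzyme, had 23.8, 23.96 and 23.99 CPM in shKRT15, against 13.4, 16.95 and 14.5 CPM in shNC. Its 3 shKRT15 values were nearly equal and all above shNC (0.68 ± 0.11, adjusted p = 7.32e-05). EARS2 lies on chromosome 16 from 23522014 to 23557731 on the minus strand (GENCODE release 29, GRCh38, like all gene spans here).

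LARS2, which charges leucine in mitochondria, had 47.7, 41.7 and 49.5 CPM in shKRT15, against 32.00, 33.01 and 30.8 CPM in shNC. The lowest shKRT15 library still stood above every shNC library (0.54 ± 0.09, adjusted p = 0.000134, and 0.39 with the GC and length trend removed). CARS2, for cysteine, had 101, 90.5 and 94.7 CPM in shKRT15, against 71.5, 71.5 and 79.2 CPM in shNC. It rose by 0.36 ± 0.08 (adjusted p = 0.00102), but at 0.17 the call was lost with the trend removed (adjusted p = 0.0635). AARS2, for alanine, had 24.9, 23.4 and 28.5 CPM in shKRT15, against 18.6, 19.5 and 17.8 CPM in shNC. It rose by 0.46 ± 0.10 (adjusted p = 0.00172), and by 0.30 with the trend removed.

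VARS2, for valine, and PARS2, for proline, were called with less margin. VARS2 had 28.5, 24.5 and 26.3 CPM in shKRT15, against 22.1, 21.8 and 20.6 CPM in shNC (0.30 ± 0.10, adjusted p = 0.0206). Its call was lost with the trend removed (0.10, adjusted p = 0.325), without shKRT15 replicate 1 (adjusted p = 0.116) and without shNC replicate 2 (0.0583). Exons of GTF2H4 on the same strand overlap 22.0% of its exon length, so some of these reads may belong to that gene. PARS2 had 7.23, 6.29 and 6.11 CPM in shKRT15, against 5.27, 4.52 and 4.68 CPM in shNC (0.44 ± 0.16, adjusted p = 0.0351). It lost its call with DESeq2 (adjusted p = 0.0598), with no filter on low counts (0.0515), with the trend removed (0.0595) and without shKRT15 replicate 1 (0.148) or shNC replicate 2 (0.115) or 3 (0.0656).

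YARS2, the mitochondrial tyrosine enzyme, was the only mitochondrial gene called lower. It had 19.1, 20.1 and 19.7 CPM in shKRT15, against 21.2, 25.1 and 26.3 CPM in shNC. The groups did not overlap, but shNC replicate 1 lay close to the shKRT15 libraries (−0.30 ± 0.10, adjusted p = 0.0264). The call was lost with total-count scaling (adjusted p = 0.0733) and without shKRT15 replicate 1 (0.111) or 3 (0.0583) or shNC replicate 2 (0.0998) or 3 (0.075). YARS2 lies on chromosome 12 from 32727490 to 32755902 on the minus strand.

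The other 9 mitochondrial genes did not pass the test. TARS2 (0.22 ± 0.09, adjusted p = 0.061), IARS2 (0.13 ± 0.07), SARS2 (0.24 ± 0.14) and MARS2 (0.21 ± 0.16) were at positive values, as were NARS2 (0.11), HARS2 (0.06) and WARS2 (0.01). RARS2 (−0.14) and FARS2 (−0.07) were at negative values. TARS2 was called with upper-quartile scaling (adjusted p = 0.0447), total-count scaling (0.0208), a minimum of 1 CPM (0.0485) and without shNC replicate 1 (0.0417). TARS2, for threonine, had 38.1, 38.9 and 44.7 CPM in shKRT15, against 37.1, 34.4 and 32.7 CPM in shNC. IARS2, for isoleucine, had 204, 217 and 197 CPM in shKRT15, against 191, 187 and 187 CPM in shNC. In both genes the groups lay apart without overlap. RARS2, for arginine, had 29.5, 27.6 and 31.1 CPM in shKRT15, against 33.1, 33.1 and 31.3 CPM in shNC. FARS2, for phenylalanine, had 18.5, 17.1 and 18.4 CPM in shKRT15, against 17.2, 19.6 and 19.6 CPM in shNC, and its groups overlapped. IARS2 was called with total-count scaling (0.0302) and with the trend removed (0.00511), and SARS2 without shNC replicate 3 (0.025). Of the exon length of SARS2, 57.0% is shared with annotated neighbours, so its counts are uncertain. The share was 46.2% on the same strand (AC011455.2) and 10.8% on the opposite strand (MRPS12).

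**Figure D2:**
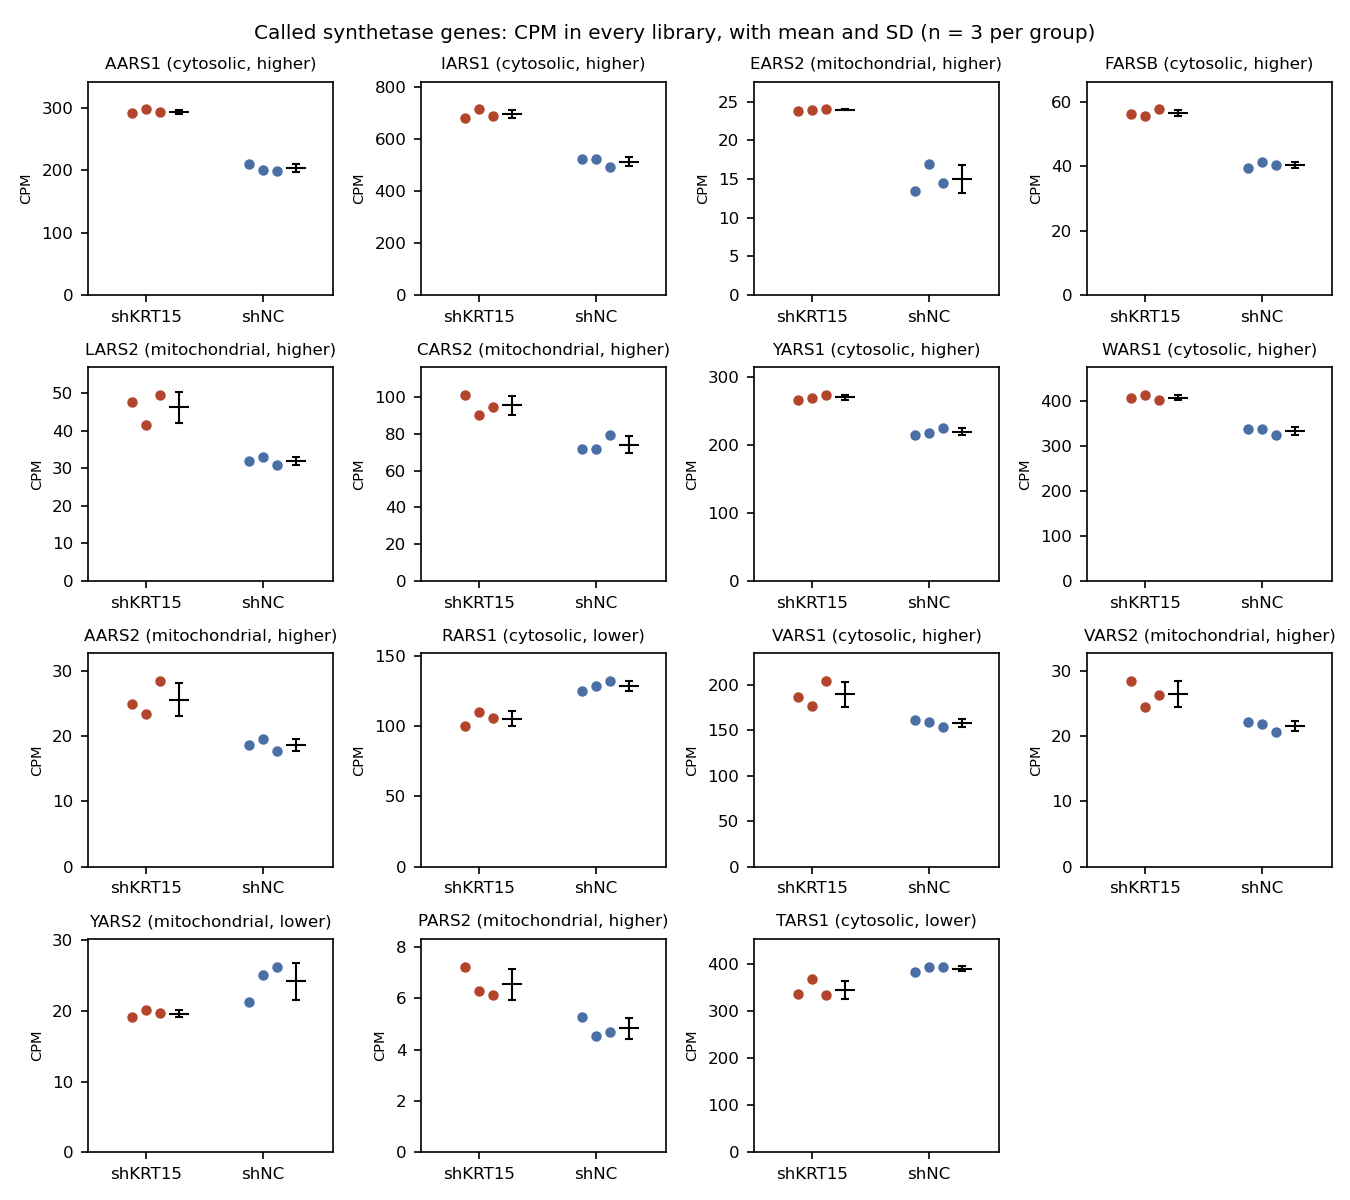
CPM of 15 called synthetase genes in each library, shKRT15 left and shNC right in every panel, with the mean and SD beside the points (n = 3 per group) and axes from 0. The groups do not overlap in any of the panels, and the margin is narrowest relative to the level for YARS2 and TARS1.

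Of the cytosolic enzymes, AARS1, FARSB and IARS1 rose most. AARS1, which charges alanine and whose promoter window holds the C/EBP-ATF motif printed above, had 291, 297 and 293 CPM in shKRT15, against 210.2, 199.8 and 199 CPM in shNC. The gap between the groups was far wider than the spread within either (0.53 ± 0.07, adjusted p = 4.38e-06, and 0.39 with the GC and length trend removed). AARS1 lies on chromosome 16 from 70252295 to 70289543 on the minus strand. IARS1, for isoleucine, was the most abundant of the 38 genes by reads. It had 682, 713 and 689 CPM in shKRT15, against 523, 521 and 494 CPM in shNC (0.44 ± 0.07, adjusted p = 3.81e-05). It lies on chromosome 9 from 92210207 to 92293756 on the minus strand and also holds the motif.

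The subunits of the phenylalanine enzyme did not move alike. FARSB, the beta subunit, had 56.3, 55.7 and 57.7 CPM in shKRT15, against 39.5, 41.2 and 40.4 CPM in shNC. It rose by 0.49 ± 0.08 (adjusted p = 8.79e-05), and by 0.64 with the trend removed. FARSA, the alpha subunit, had 65.7, 60.5 and 63.5 CPM in shKRT15, against 55.1, 61.4 and 60.2 CPM in shNC, with overlapping groups (0.10 ± 0.08, adjusted p = 0.32). GC content was 60.3% for FARSA and 41.6% for FARSB.

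YARS1, WARS1 and VARS1 rose by smaller steps. YARS1, the tyrosine enzyme, had 266, 269 and 273 CPM in shKRT15, against 215, 217 and 225 CPM in shNC (0.30 ± 0.07, adjusted p = 0.00119, lost at 0.12 with the trend removed, adjusted p = 0.0916). WARS1, the tryptophan enzyme that interferon-gamma is known to raise, had 405, 412 and 402 CPM in shKRT15, against 338, 337 and 322 CPM in shNC (0.29 ± 0.07, adjusted p = 0.00152, and 0.15 with the trend removed). VARS1, for valine, had 187, 177 and 204 CPM in shKRT15, against 161, 159 and 153 CPM in shNC (0.26 ± 0.07, adjusted p = 0.00658, lost at 0.08 with the trend removed, adjusted p = 0.249). In all 3 genes every shKRT15 library stood above every shNC library. Exons of genes on the opposite strand overlap 10.6% of WARS1, and the strand setting of the counting is not given in the sources used here.

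RARS1 and TARS1 fell. RARS1, the arginine enzyme of the multisynthetase complex, had 99.9, 110.1 and 105 CPM in shKRT15, against 125, 128 and 132 CPM in shNC. The log2 fold change was −0.29 ± 0.07 (adjusted p = 0.00304), and the call was lost at −0.13 with the trend removed (adjusted p = 0.0654). TARS1, for threonine, had 336, 367 and 333 CPM in shKRT15, against 383, 395 and 394 CPM in shNC (−0.18 ± 0.07, adjusted p = 0.0429). Its call was lost with upper-quartile (adjusted p = 0.07) and total-count scaling (0.173), with no filter on low counts (0.0697), with the trend removed (0.056) and without shKRT15 replicate 1 (0.217) or 3 (0.124) or shNC replicate 1 (0.0673) or 2 (0.148). RARS1 lies on chromosome 5 from 168486445 to 168519299 and TARS1 on the same chromosome from 33440696 to 33469539, both on the plus strand.

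The other 13 cytosolic genes did not pass. GARS1, the glycine enzyme, had 296, 302 and 289 CPM in shKRT15, against 293, 297 and 290.2 CPM in shNC (0.01 ± 0.06, 95% interval −0.13 to 0.15). The groups overlapped. EPRS1 had 349, 386 and 320.1 CPM in shKRT15, against 346, 327 and 315 CPM in shNC. LARS1, for leucine, had 176, 189 and 178 CPM in shKRT15, against 176, 173 and 164 CPM in shNC. Both of these overlapped between the groups. Other log2 fold changes were 0.15 for KARS1, 0.14 for QARS1, 0.10 for FARSA, 0.09 for EPRS1, 0.08 for LARS1 and 0.07 for CARS1. Below 0 were NARS1 (−0.02), SARS1 (−0.02), MARS1 (−0.05), HARS1 (−0.12) and the second cytosolic threonine enzyme TARS3 (−0.25 ± 0.19), at 4.298 CPM in shKRT15 and 5.11 CPM in shNC. With the trend removed, EPRS1 (0.16, adjusted p = 0.0293) and LARS1 (0.18, 0.00842) were called higher and HARS1 (−0.19, 0.0402) and MARS1 (−0.21, 0.0135) lower. KARS1 was called higher with total-count scaling (adjusted p = 0.0151) and without shNC replicate 3 (0.0298), and QARS1 under the same 2 settings (0.0308 and 0.0169).

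Levels of different genes were compared per length, as RPKM computed here from the scaled CPM and the annotated exon length. Cytosolic genes had a median of 35.1 in shKRT15 and 37.6 in shNC, and mitochondrial genes a median of 5.96 in shKRT15 and 4.33 in shNC. Per length of the longest annotated transcript, the cytosolic median was 70.1 in shKRT15 and 59.9 in shNC, the opposite direction. The mitochondrial median was then 6.6 and 5.1. Whether the cytosolic median is higher or lower in shKRT15 thus depends on the length used. IARS1 led in shKRT15 at 93.9 ± 2.2 (SD, n = 3). In shNC GARS1 led at 70.7 ± 0.87, with IARS1 next at 69.3 ± 2.2. Per length of the longest transcript, IARS1 led in shKRT15 at 149.2 and SARS1 in shNC at 123.9. AARS1 took rank 3 in shKRT15 and rank 9 in shNC, at 65.3 ± 0.70 and 45.2 ± 1.4. The compartments overlapped. IARS2 was the highest mitochondrial gene, at 49.5 ± 2.5 in shKRT15 and 45.2 ± 0.55 in shNC, rank 9 and rank 8 of the 38. RARS2 (rank 21 in shKRT15 and 20 in shNC), HARS2 (23 in both), TARS2 (24 in both) and YARS2 (25 and 22) lay above the cytosolic HARS1 (27 and 25). For these genes that order reversed with the longest annotated transcript as the length. HARS1 was then at 16.8 in shKRT15 and 18.2 in shNC. RARS2 was at 16.2 and 17.9, HARS2 at 15.5 and 14.9, TARS2 at 14.9 and 12.7, and YARS2 at 9.2 and 11.4. CARS2 held rank 26 in both groups on the exon length. On the longest transcript CARS2 lay above HARS1, at 27.1 and 21.1. TARS3 lay below every mitochondrial gene, at 0.938 in shKRT15 and 1.12 in shNC. The lowest mitochondrial levels were 2.36 for WARS2 in shKRT15 and 2.06 for PARS2 in shNC. With the longest annotated transcript as the length, the ratio of the cytosolic to the mitochondrial median in shNC was 11.7 in place of 8.66.

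**Figure D3:**
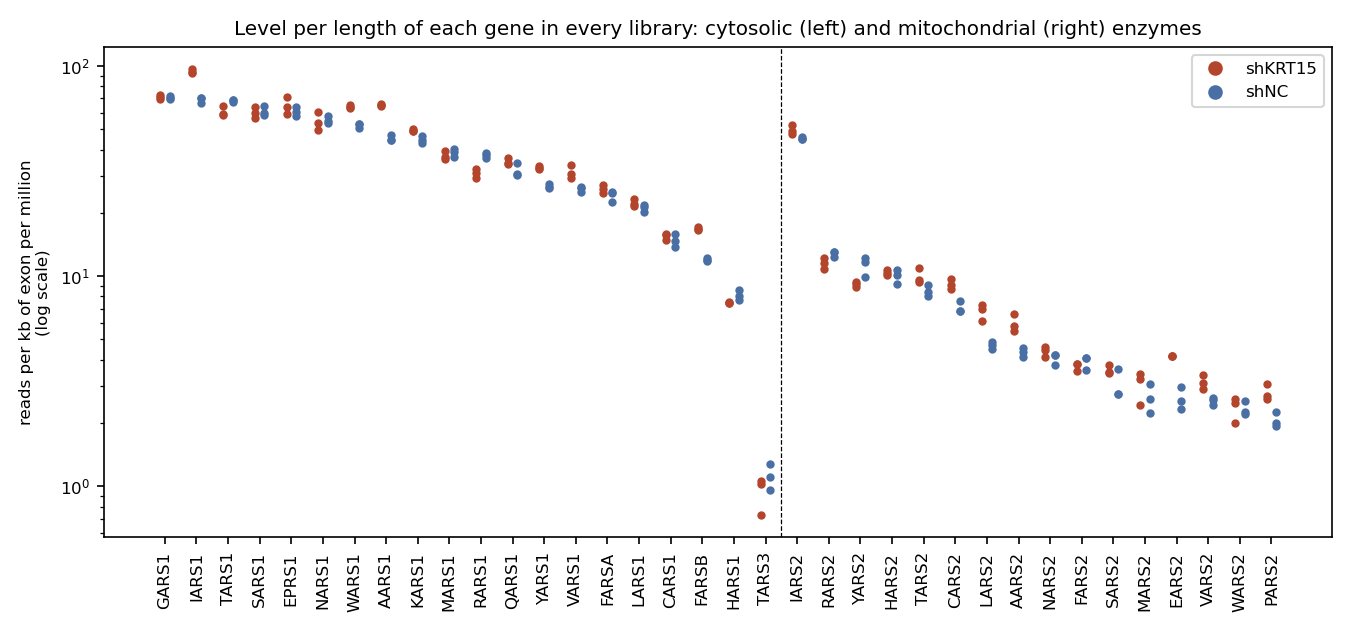
RPKM on a log axis for 36 genes in every library, shKRT15 left of shNC within each gene, cytosolic enzymes left of the dashed line and mitochondrial enzymes right of it, ordered by the shNC mean. IARS2 stands far above the other mitochondrial genes drawn and TARS3 below all of them. On the annotated exon length drawn here, RARS2, HARS2, TARS2 and YARS2 lie above the cytosolic HARS1, an order that depends on that length.

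The balance between the cytosolic and the mitochondrial gene of the same amino acid was read as their log2 ratio within each library, which no library scaling can change. There were 18 such pairs, with EPRS1 set against both EARS2 and PARS2 and FARS2 against both FARSA and FARSB, so the pairs are not independent. The ratio was lower in shKRT15 without overlap in 7 pairs, higher without overlap in 5 and overlapping in 6. Of all tested genes taken singly, 54.0% did not overlap between the groups. That share was not computed for ratios of other gene pairs, so these counts are a description. A 2-sided exact permutation test over 3 against 3 libraries gave p = 0.1 at its smallest (adjusted p = 0.15 over the 18 pairs), so no pair could pass. The glutamate pair tilted to its mitochondrial gene: EPRS1 over EARS2 was 3.87, 4.01 and 3.74 in shKRT15, against 4.69, 4.27 and 4.44 in shNC. LARS1 over LARS2 was lower by 0.45, TARS1 over TARS2 by 0.40, EPRS1 over PARS2 by 0.35, CARS1 over CARS2 by 0.30 and HARS1 over HARS2 by 0.18.

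In the opposite direction, the tyrosine pair moved furthest. YARS1 over YARS2 was 3.80, 3.75 and 3.79 in shKRT15, against 3.34, 3.12 and 3.10 in shNC, with YARS1 called higher and YARS2 lower. FARSB over FARS2 was higher by 0.55, IARS1 over IARS2 by 0.31, WARS1 over WARS2 by 0.28 and FARSA over FARS2 by 0.17. Both genes rose in the alanine and valine pairs. AARS1 over AARS2 was 3.55, 3.67 and 3.36 in shKRT15, against 3.50, 3.36 and 3.49 in shNC, and the ratios overlapped. HARS1 and HARS2 start head to head on chromosome 5 and share exon sequence on opposite strands, 11.7% of the exon length of HARS2.

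**Figure D4:**
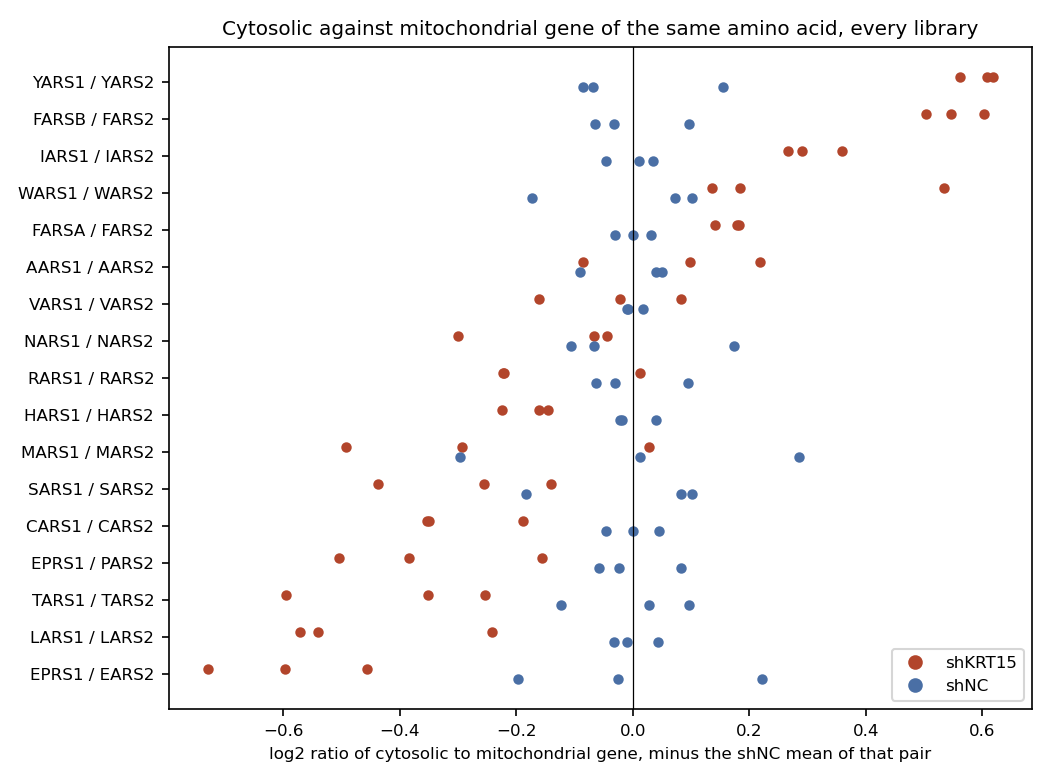
Log2 ratio of the cytosolic to the mitochondrial gene for 17 of the 18 pairs, each given relative to the shNC mean of its pair, with 1 point per library (shKRT15 above shNC in each row). Points left of 0 mean a ratio tilted to the mitochondrial gene. EPRS1 over EARS2 lies lowest of those drawn and YARS1 over YARS2 highest.

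By complex membership, 1 of the 8 cytosolic enzymes of the multisynthetase complex rose (IARS1) and 1 fell (RARS1), with a median of 0.09 (12.5% each, against 22.1% higher and 23.0% lower of all tested genes). Of the other 13 cytosolic genes 5 rose (38.5%) and 1 fell (7.69%), with a median of 0.07. Its scaffold genes did not rise. AIMP1, which holds RARS1 in the complex, had 40.7, 40.9 and 33.2 CPM in shKRT15, against 50.6, 48.7 and 58.7 CPM in shNC. The log2 fold change was −0.46 ± 0.10 (adjusted p = 0.00128), and this call was lost at −0.14 with the trend removed (adjusted p = 0.172). AIMP2 was at −0.06 and EEF1E1 at 0.05, though EEF1E1 was called higher at 0.43 with the trend removed (adjusted p = 0.00488). By catalytic fold, 8 of 18 class I enzymes rose (44.4%) and 2 fell (11.1%), and 5 of 19 class II enzymes rose (26.3%) and 1 fell (5.26%), against 22.1% higher and 23.0% lower of all tested genes. EPRS1 holds both folds and is in neither count.

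Around the mitochondrial enzymes, the glutamyl-tRNA amidotransferase makes glutaminyl-tRNA, since mitochondria lack a glutamine enzyme of their own. Its subunit gene GATB rose, with 36.3, 35.96 and 37.1 CPM in shKRT15, against 22.2, 27.7 and 24.8 CPM in shNC (0.55 ± 0.10, adjusted p = 0.000203). GATC (0.09), QRSL1 (0.02) and the formylase gene MTFMT (−0.12) did not pass, so 1 of 4 rose. Of 6 tested genes of editing and selenocysteine loading, 2 rose (33.3%) and 1 fell (16.7%), against 22.1% and 23.0% of all tested genes. Those that rose were the D-aminoacyl-tRNA deacylase DTD1 (0.30 ± 0.08, adjusted p = 0.00388) and the selenocysteine elongation factor EEFSEC (0.52 ± 0.13, 0.00395). SEPSECS, which makes selenocysteinyl-tRNA, fell by 0.36 ± 0.13 (0.0342) and lost that call with total-count scaling (0.0841), DESeq2 (0.0535), the trend removed (0.444) and without shKRT15 replicate 1 (0.134) or 3 (0.117) or shNC replicate 2 (0.0941) or 3 (0.0689). Of 10 elongation factors, which serve the ribosome as it adds amino acids, 2 rose (20.0%, near the 22.1% of all tested genes). These were EEF1A2 (0.56 ± 0.07, adjusted p = 3.72e-06) and the mitochondrial TUFM (0.20 ± 0.07, 0.0295). TUFM lost its call without shKRT15 replicate 1 (0.119) or 3 (0.069) or shNC replicate 1 (0.11) or 2 (0.111). EEF2 (0.16, adjusted p = 0.0638) did not pass, but did with DESeq2 (0.0322) and 5 other settings. EEF1A1 lay the other way (−0.16, adjusted p = 0.0773) and was likewise called, lower, with DESeq2 (0.0257) and 5 other settings.

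Of 27 genes of tRNA maturation and export, 6 rose (22.2%) and 4 fell (14.8%), with a median of −0.04. The share that rose was that of all tested genes (22.1%), and fewer fell than the 23.0% of all. The polymerase III subunit gene POLR3G fell most by p-value (−0.84 ± 0.13, adjusted p = 8.33e-05), and POP1, a subunit of RNase P (0.44 ± 0.08, 0.000131), and ELAC2, which trims tRNA 3′ ends (0.38 ± 0.08, 0.00146), rose. Of 18 genes that sense amino acid supply, 4 rose and 4 fell (22.2% each, near the shares of all tested genes), with a median of 0.03. The RAG GTPase gene RRAGC fell (−0.56 ± 0.07, adjusted p = 7.07e-06), RRAGA rose (0.46 ± 0.08, 9.97e-05) and RRAGD fell (−0.50 ± 0.09, 0.000232). EIF2AK4, the kinase that binds uncharged tRNA, was at 0.03.

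Known ATF4 targets outside the synthetases moved both ways: of 28, 10 rose (35.7%, against 22.1% of all tested genes) and 7 fell, a share near the 23.0% of all tested genes, with a median of 0.08. PHGDH, the first enzyme of serine synthesis, had 232, 271 and 229 CPM in shKRT15, against 105, 113 and 120.4 CPM in shNC (1.11 ± 0.08, adjusted p = 7e-09). The stress genes STC2 (−0.93 ± 0.07, adjusted p = 2.36e-08) and SESN2 (−0.76 ± 0.07, 1.2e-07) fell. ATF4 itself was at −0.14 ± 0.07 (adjusted p = 0.12), called lower with the trend removed (−0.20, 0.00542), TRIB3 at 0.12 (adjusted p = 0.263) and DDIT3 fell by 0.37 ± 0.12 (0.018). DDIT3 lost its call with total-count scaling (0.0532), without shKRT15 replicate 1 (0.113) and without shNC replicate 3 (0.0765). DDIT3 and MARS1 share exon sequence on opposite strands, and 13.3% of the MARS1 exon length overlaps a neighbouring gene. Of 13 tested genes of the interferon-gamma response, 5 rose (38.5%) and 4 fell (30.8%), against 22.1% and 23.0% of all tested genes. TAP1 (−0.45 ± 0.08, adjusted p = 0.00015) and GBP2 (−0.45 ± 0.08, 0.00015) fell, beside the rise of WARS1.

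**Figure D5:**
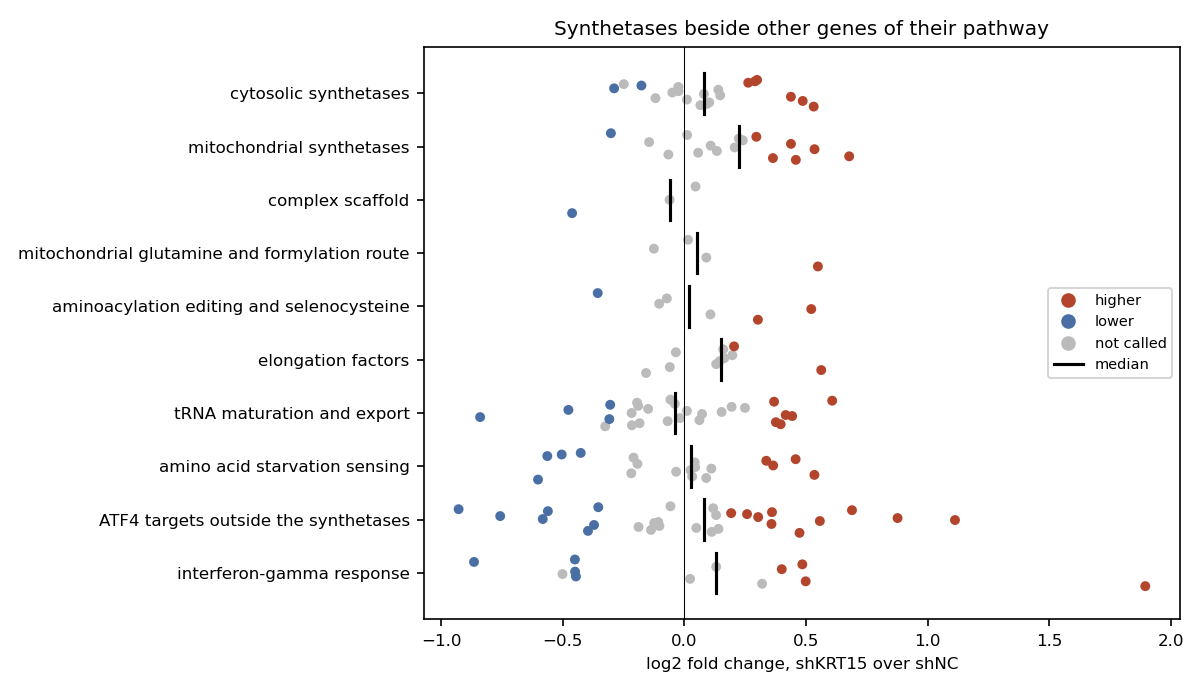
Log2 fold change, shKRT15 over shNC, of the synthetase genes and of the 8 other gene lists described in the text, coloured by call. Not all of these lists belong to the aminoacyl-tRNA pathway. Black bars give the median over all tested genes of each list. The synthetases drawn stay between −0.30 and 0.68, whereas ATF4 targets run from −0.93 to 1.11 with calls on both sides.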

How the data were processed

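RNA was sequenced from 6 cultures, grouped by their titles. The authors deposited raw read counts as whole numbers. The build was GRCh38, per the submitters' processing notes; for the aligner, counter, annotation and strand, the sources used here give nothing. The design text speaks of biological replicates, and no source says whether transfections were separate, so the p-values cover only the spread among these cultures.

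Genes were kept by filterByExpr (minimum count 10, minimum total 15), scaled by TMM and tested in R 4.3.3 with edgeR 4.0.16 (robust quasi-likelihood F-test, group as the only term), adjusting by Benjamini-Hochberg over all 14356 genes. The test was checked on simulated data. Alternatives were DESeq2 1.42.0 and its size factors, limma-voom (limma 3.58.1), upper-quartile and total-count scaling, other filters, protein-coding genes only, a replicate block, removal of the GC and length trend (values for 96.0% of tested genes, GENCODE release 29) and leaving out each library. Libraries within a group differed by a chi-square per degree of freedom of 6.05 to 29.0, so none is a copy of another. All 6 were used as samples. This check cannot tell separate transfections from repeated libraries of the same culture.

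Members and lists were chosen with earlier results of these data known. The rule asked for library values of KRT15, the 6 called members with the smallest p in each direction, their pair partners, WARS1 and GARS1, and for the 3 genes of each other list with the smallest p. Library values of the other called members and of FARSA, and ATF4, ASNS, DDIT3, TRIB3, EEF1A1, EIF2AK4 and QRSL1, were added after values were seen. A few genes are counted in the totals and lists but not reported here one by one.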

Additional observations from a re-analysis of the deposited data

How the results depend on the processing

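Across 17 other settings, 13 of the 38 genes kept their direction and side of the threshold, among them 8 of the 16 called. The count of members called higher (13) was 11 to 15 when each library was left out and 17 with total-count scaling. The count called lower (3) was 1 with total-count scaling, and 1 to 3 with a library left out. Cytosolic genes called lower (2) were 1 with upper-quartile scaling, total-count scaling or no filter, and 1 to 2 with a library left out, and mitochondrial genes called lower (1) were 0 with total-count scaling and 0 to 1 with a library left out. With total-count scaling the median log2 fold change was 0.18 for all 38 genes and 0.14 for the cytosolic ones. With the GC and length trend removed the cytosolic median was 0.030, and 0.031 with the replicate block as well. Left-out libraries gave medians of 0.11 to 0.15 (all), 0.055 to 0.098 (cytosolic) and 0.17 to 0.28 (mitochondrial), and a difference of medians, cytosolic minus mitochondrial, of −0.22 to −0.07. Among all genes, total-count scaling called 3740 higher and 2711 lower. The replicate number did not pair the libraries (correlations of same-numbered libraries −0.0074 to 0.0462), and the replicate block called 13 members higher and 3 lower.

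Reversals among the genes reported one by one concerned genes that were not called. With the trend removed, first without and then with the replicate block, they were CARS1 (−0.113, −0.110), GARS1 (−0.0666, −0.0675), HARS2 (−0.0336, −0.0327), NARS1 (0.0165, 0.0138), QARS1 (−0.0121, −0.0109), RARS2 (0.0555, 0.0516) and TRIB3 (−0.0159, −0.0218). With total-count scaling they were MARS1 (0.0114), NARS1 (0.0378) and SARS1 (0.0365). With a library left out the values crossed 0 for NARS1 (−0.101 to 0.0434), SARS1 (−0.0657 to 0.0189), WARS2 (−0.0537 to 0.124), AIMP2 (−0.101 to 0.0034), EEF1E1 (−0.0432 to 0.141), QRSL1 (−0.0123 to 0.0407), MTFMT (−0.213 to 0.014) and ASNS (−0.291 to 0.400). The cause was not tested. The deposited table holds no gene lengths, so a length from it was not used. The longest transcript as length (cytosolic over mitochondrial ratio 11.7) and the removal of 5 overlapping genes (11 higher, 3 lower) were chosen after seeing the data. The precision rests on 3 libraries a group.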

Other observations

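ASNS, which makes asparagine from aspartate and is a classical ATF4 target, was nearly silent in both groups. It had 58, 45 and 37 reads in shKRT15, against 51, 48 and 13 reads in shNC, which is 1.13 and 1.04 CPM on average. In the same libraries ATF4 stood at 664 CPM in shKRT15 and 730 CPM in shNC, and the asparagine enzyme NARS1 at 222 and 226 CPM. The fold change of ASNS was 0.11 ± 0.45 (SE, adjusted p = 0.863), and shNC replicate 3 stood apart from the other libraries. ASNS was looked at after its values were seen.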
